A study of Mus musculus with 17 samples.

Results

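The genes of sterol and fatty acid synthesis, 38 in all of the 35896 gene IDs in each file, were followed in mouse pancreatic stellate cells under 4 media. They were chosen by symbol for their place in the pathway, with earlier results of these data known. They fall into 4 arms, among them 18 enzymes of sterol synthesis and 6 genes of SREBP control and sterol transport. The other arms are 10 enzymes of fatty acid synthesis, and 4 genes of LXR and sterol efflux. All 38 had 1 gene ID each, and all 38 passed the filter on low counts. The 17 RNA-seq libraries came from wild-type C57BL/6J stellate cells, lines PSC4 and PSC5, cultured in the basement membrane gel Matrigel and collected on day 4. The control group had 5 libraries in control medium, the TGF-beta group 4 libraries at 20 ng/mL, the CM group 4 libraries in medium conditioned by pancreatic tumor organoids, and the neratinib group 4 libraries in such conditioned medium to which neratinib, which blocks ERBB receptor kinases, was added at 300 nM. PSC4 was at passages 23 to 25 and PSC5 at passages 27 and 28, and within a line the replicate number goes with the passage. In the CM and neratinib groups the libraries numbered 2 carry the medium code T6 and those numbered 1 the code T8. The labels do not say what the codes stand for. All groups share the strain and the wild-type genotype.

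Cells make cholesterol from acetyl-CoA through mevalonate, squalene and lanosterol, and make fatty acids from the same acetyl-CoA through malonyl-CoA. The transcription factors SREBP-1 and SREBP-2, encoded by Srebf1 and Srebf2, are held in the endoplasmic reticulum by Scap and the Insig proteins while sterols are plentiful and are cut free when sterols run low, after which they switch on both arms. LXR, a receptor for oxidised sterols, works in the other direction on sterols: it induces exporters such as Abca1 and Abcg1, and also induces Srebf1 and several fatty acid enzymes. Quiescent stellate cells store lipid and retinoid droplets and lose them when they become activated fibroblasts.

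Promoter sequences were read for the members that carry the sites these factors are known by, so that the sterol arm, the fatty acid arm and the efflux arm can be set beside each other. Windows from 250 bases before to 50 bases after a gene start, from RefSeq on GRCm38.p6, were found for 30 of the 38 members. Capitals in the Hmgcs1 and Srebf2 stretches mark part of a sterol regulatory element, the site of SREBP, and a CCAAT box, the site of NF-Y. The part of the element is its core, CACNCCAC, in Hmgcs1 and its 5′ part, ATCACNCCA, in Srebf2, which had no match to the core. Capitals in the Abca1, Fasn and Srebf1 stretches mark a direct repeat of the kind LXR binds, searched as GGTNA and GGTCA with 5 bases of any kind between them. A motif may lie on either strand, and ATTGG is CCAAT read from the other strand.
Hmgcs1: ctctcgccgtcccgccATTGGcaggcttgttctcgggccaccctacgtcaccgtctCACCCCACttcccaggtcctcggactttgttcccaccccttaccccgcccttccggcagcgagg
Srebf2: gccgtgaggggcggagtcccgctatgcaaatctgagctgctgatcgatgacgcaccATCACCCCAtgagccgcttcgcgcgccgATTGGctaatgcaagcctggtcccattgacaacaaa
Abca1: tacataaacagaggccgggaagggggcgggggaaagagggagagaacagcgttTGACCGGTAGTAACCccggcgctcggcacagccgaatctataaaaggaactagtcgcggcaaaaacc
Fasn: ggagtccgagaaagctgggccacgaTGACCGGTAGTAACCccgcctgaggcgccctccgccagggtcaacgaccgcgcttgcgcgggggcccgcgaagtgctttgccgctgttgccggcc
Srebf1: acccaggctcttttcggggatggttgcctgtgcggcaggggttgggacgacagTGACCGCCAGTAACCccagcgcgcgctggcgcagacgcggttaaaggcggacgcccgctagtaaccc
Each stretch is 120 bases long, is written 5′ to 3′ on the strand of its gene and lies before the start of the transcript. On GRCm38.p6 they are chr13:119690159-119690278 on the plus strand for Hmgcs1, chr15:82147050-82147169 on the plus strand for Srebf2, chr4:53159896-53160015 on the minus strand for Abca1, chr11:120824678-120824797 on the minus strand for Fasn, and chr11:60210587-60210706 on the minus strand for Srebf1, where the start is an internal one within the gene. By the GENCODE M21 positions, the Hmgcs1, Srebf2, Abca1 and Fasn stretches lie outside the span of their own gene, and the Srebf1 stretch lies inside it. Overlap with exons was not tested. A CCAAT box was present in 14 of the 15 sterol synthesis genes with a window and 4 of 5 such genes of SREBP control. It was present in 4 of 7 of the fatty acid arm and 1 of 3 of the LXR and efflux arm, against 41.1% of 27025 genes with a window. The motif CACNCCAC was found in Hmgcs1, Acat2 and Insig1 (3 of 30 members, against 7.12% of all genes), and ATCACNCCA in Srebf2 alone among the members (0.992% of all genes). The direct repeat was found in Abca1, Fasn and Srebf1 (3 of 30 members, against 0.226% of all genes). A longer form of the sterol element, TCACNCCAC, was found in Hmgcs1 alone (1.44% of all genes). Of 2 looser forms, which overlap the others, TCACNNCAC was found in Hmgcs1, Dhcr7, Hsd17b7 and Msmo1 (4 of 30 members, against 4.37%). TCANNNCAC was present in 8 of 30 members (15% of all genes). The GC box GGGCGG was in 24 of 30 members (38.2% of all genes) and the E-box CACGTG in 7 of 30 (8.09%). These are matches of letters in promoter windows, of which some genes have more than 1, and do not show binding.

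Library totals lay between 22168953 and 29421447 counts, and the 38 members took 0.432% to 0.498% of the counts in control libraries, 0.931% to 1.19% with TGF-beta, 0.707% to 0.823% in CM and 0.511% to 0.654% with neratinib. All 10 markers of stellate cells and fibroblasts exceeded 3 counts in a library of each group. Summed levels were 5785 to 7189 CPM in control and 9689 to 19551 CPM with TGF-beta. They were 5718 to 6676 CPM in CM and 4012 to 6563 CPM with neratinib. Single markers did not all move together: the mean of Col1a1 was 1751 CPM in control and 7751 CPM with TGF-beta. That of Dcn was 181 CPM in control, 50.5 CPM with TGF-beta and 1537 CPM in CM. Des was low, with a mean of 2.47 CPM in control. CPM is the count scaled to equal library totals, with TMM correction for single genes and arms, and without it for these marker sums. Of 12 epithelial markers, 8 exceeded 3 counts in a control library and Esrp1 was at 0 in all of them, while all 12 exceeded 3 counts in a library of the CM group and of the neratinib group. Their summed level was 17.9 to 29.6 CPM in control, 15.1 to 20.8 CPM with TGF-beta, 22.9 to 189.6 CPM in CM and 9.42 to 319.5 CPM with neratinib. In both conditioned medium groups the T6 libraries (144.8 to 319.5 CPM) lay above the T8 libraries (9.42 to 51.2 CPM). The sum of 6 adipocyte markers did not exceed 1.82 CPM in any library, with Lep at 0 in the control, TGF-beta and CM groups, and that of 8 leukocyte markers did not exceed 12.3 CPM, with Adgre1, Cd3e and Tyrobp at 0. The part of these differences in the results was not tested. In bulk RNA, fewer cells of a type and less RNA per cell cannot be told apart.

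Before the comparisons, 3 libraries need naming: those labelled PSC4 replicate 1 in the control, CM and neratinib groups. After removal of group means, their genome-wide deviations correlated with PSC5 libraries of other groups (median r across genes 0.195, 18 pairs) and ran against other PSC4 libraries (median r -0.308, 14 pairs). Among the remaining libraries, PSC4 and PSC5 deviated in opposite directions (median r -0.308, 36 pairs) and libraries of 1 line with different numbers together (median r 0.254, 18 pairs). Deviations are taken from the group mean, so the libraries of a group cannot all deviate the same way. Part of the opposite signs between libraries that differ follows from this. Since genes do not vary independently, no test is attached to these correlations. The libraries are called by their labels here. Without the 3 of them, the counts of members called were 34 for TGF-beta, 33 for CM and 31 for neratinib against control, against 33, 32 and 30 with them, and other changes are given where they occur.

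All 18 sterol synthesis enzymes and all 10 fatty acid enzymes rose with TGF-beta. With conditioned medium all 18 sterol enzymes and 9 of the 10 fatty acid enzymes rose, and 11 sterol and 7 fatty acid enzymes were called lower than with TGF-beta. With neratinib in the conditioned medium, 17 sterol and 7 fatty acid enzymes were still above control, and 16 sterol and 4 fatty acid enzymes were below CM. Of the 4 LXR and efflux genes, 1 was called higher with TGF-beta (Abcg1) and 1 in CM (Nr1h2). Of all genes tested, 19.7% were called higher with TGF-beta, 7.05% in CM and 22.2% with neratinib. Called lower were 17.5% in CM than with TGF-beta, and 9.63% with neratinib than in CM. For the LXR and efflux genes, 1 of 4 is near the share of all genes with TGF-beta. In CM it is above that share but is 1 gene. Calls are from the quasi-likelihood test of edgeR, with p-values adjusted over 13923 genes, and the error beside a log2 fold change is its standard error (SE). The labels do not say whether the libraries of a line came from separate cultures treated separately, so p-values measure the spread between these libraries.

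**Figure D1:**
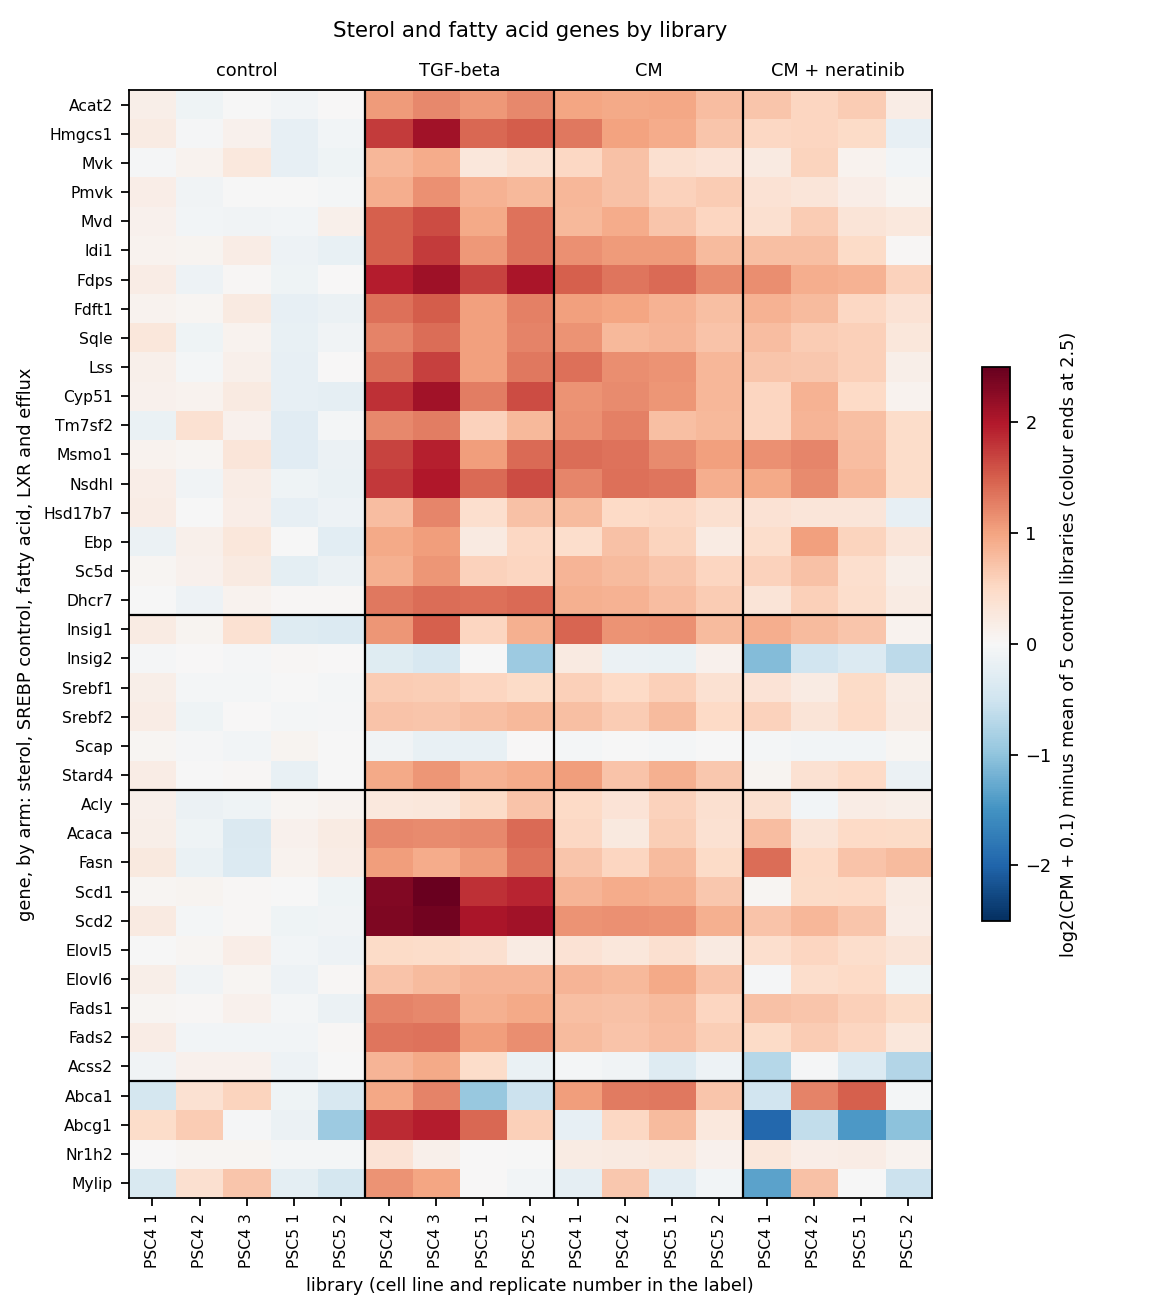
Each cell is the log2 level of 1 gene (row) in 1 library (column) minus the mean of the 5 control libraries; rows are grouped by arm and columns by medium. Most sterol and fatty acid rows are highest in the 4 TGF-beta libraries, intermediate in CM and lower with neratinib, while Abca1, Abcg1 and Mylip vary within groups.

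With TGF-beta, 33 of the 38 members were called higher and 0 lower, beside 19.7% of all genes tested called higher. The sterol arm had a median log2 fold change of 1.36 (range 0.65 to 1.97), the fatty acid arm 1.09 (range 0.40 to 2.24), and all genes tested -0.02. In 30 members every TGF-beta library lay above every control library, beside 16.3% of all genes. All 33 calls were kept under each of the 18 alternative analyses.

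The mevalonate end of the sterol arm is opened by Hmgcs1 (ENSMUSG00000093930, chr13:119690379-119708260), which condenses acetyl-CoA units into HMG-CoA. Its level in control was 137, 118 and 128 CPM in PSC4 and 103 and 114 CPM in PSC5, and with TGF-beta 403 and 515 CPM in PSC4 and 325 and 339.8 CPM in PSC5. CM libraries held 299 and 241 CPM in PSC4 and 228 and 194 CPM in PSC5, and neratinib libraries 172 and 173 CPM in PSC4 and 167 and 104 CPM in PSC5. All TGF-beta and CM libraries lay above all control libraries, but the PSC5 replicate 2 library with neratinib was within the control range. The log2 fold change against control was 1.74 ± 0.12 SE, adjusted p = 7.94e-08 for TGF-beta, 1.03 ± 0.12 SE, adjusted p = 0.000117 for CM, and 0.39 ± 0.12 SE, adjusted p = 0.0173 for neratinib. Acat2, which makes the acetoacetyl-CoA that Hmgcs1 uses, rose 2.21-fold with TGF-beta and 1.90-fold in CM. It lies beside a closely related gene, Acat3, so some of its reads may have been shared out between them.

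Mvk, Pmvk and Mvd, which phosphorylate and decarboxylate mevalonate, rose 1.57-fold, 1.93-fold and 2.62-fold with TGF-beta. Idi1, the isomerase that prepares the condensation of isoprene units, rose 2.74-fold. Fdps (ENSMUSG00000059743, chr3:89093588-89101959), which makes farnesyl diphosphate, had the largest rise of the sterol arm with TGF-beta and in CM. Its control libraries held 111, 88.6 and 98.7 CPM in PSC4 and 90.2 and 98.2 CPM in PSC5 and its TGF-beta libraries 378 and 424 CPM in PSC4 and 313 and 400.3 CPM in PSC5. The level was 272 and 245 CPM in PSC4 and 259 and 221 CPM in PSC5 in the CM group, and 217 and 182 CPM in PSC4 and 177 and 145 CPM in PSC5 with neratinib. The 3 treated groups lay wholly above control, and CM lay wholly between neratinib and TGF-beta. Its log2 fold change against control was 1.97 ± 0.10 SE, adjusted p = 5.00e-09 for TGF-beta, 1.37 ± 0.10 SE, adjusted p = 2.41e-06 for CM, and 0.90 ± 0.10 SE, adjusted p = 1.39e-05 for neratinib.

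Farnesyl diphosphate is the last precursor shared with other isoprenoids, and Fdft1 commits it to sterols by making squalene. Fdft1 rose 2.51-fold with TGF-beta, 1.91-fold in CM and 1.59-fold with neratinib. Sqle (ENSMUSG00000022351, chr15:59315077-59331192), the squalene epoxidase, stood at 159, 122 and 139 CPM in PSC4 and 115 and 124 CPM in PSC5 in control and 309.9 and 347 CPM in PSC4 and 268 and 309.9 CPM in PSC5 with TGF-beta. In CM it stood at 285 and 229 CPM in PSC4 and 237 and 216 CPM in PSC5, and with neratinib at 224 and 203 CPM in PSC4 and 198 and 160.2 CPM in PSC5. Every library of the 3 treated groups lay above the highest control library, which was the one labelled PSC4 replicate 1. Against control the log2 fold change was 1.25 ± 0.09 SE, adjusted p = 1.15e-07 for TGF-beta, 0.90 ± 0.09 SE, adjusted p = 3.43e-05 for CM, and 0.59 ± 0.09 SE, adjusted p = 0.000178 for neratinib.

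Lss closes squalene epoxide into lanosterol. Its libraries held 76.5, 67.4 and 75.7 CPM in PSC4 and 60.3 and 70.0 CPM in PSC5 in control, 184 and 229 CPM in PSC4 and 142 and 173 CPM in PSC5 with TGF-beta, 181 and 157 CPM in PSC4 and 151 and 125 CPM in PSC5 in CM, and 113 and 111 CPM in PSC4 and 106 and 77.1 CPM in PSC5 with neratinib. TGF-beta and CM overlapped (log2 -0.24 ± 0.11, adjusted p = 0.103), and neratinib lay wholly below CM and above control. Cyp51 (ENSMUSG00000001467, chr5:4081145-4104746), the lanosterol demethylase, had 148, 145 and 159 CPM in PSC4 and 119 and 118 CPM in PSC5 in control and 488 and 585 CPM in PSC4 and 332 and 424 CPM in PSC5 with TGF-beta. It had 297 and 309 CPM in PSC4 and 294 and 243 CPM in PSC5 in CM and 198 and 250.3 CPM in PSC4 and 194 and 145 CPM in PSC5 with neratinib. All TGF-beta libraries were above all CM libraries, and the neratinib library of PSC5 replicate 2 fell within the control range. Cyp51 rose 3.38-fold with TGF-beta and 2.14-fold in CM.

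After lanosterol, Msmo1 and Nsdhl remove methyl groups, and Ebp, Sc5d and Dhcr7 rearrange the double bonds. Msmo1 (ENSMUSG00000031604, chr8:64718139-64733792) had 116, 112 and 134 CPM in PSC4 and 89.3 and 97.7 CPM in PSC5 in control, 351 and 421 CPM in PSC4 and 224 and 289.5 CPM in PSC5 with TGF-beta, 288 and 279 CPM in PSC4 and 245 and 222 CPM in PSC5 in CM, and 240.2 and 253 CPM in PSC4 and 184 and 150.02 CPM in PSC5 with neratinib. All treated libraries lay above control, and in each treated group the PSC4 libraries lay above the PSC5 libraries. Msmo1 had the largest rise over control of the sterol arm with neratinib (0.94 ± 0.10 SE, adjusted p = 9.01e-06 on the log2 scale). Nsdhl rose 3.34-fold with TGF-beta, 2.37-fold in CM and 1.85-fold with neratinib. Dhcr7, a reductase at the end of the pathway, rose 2.61-fold, 1.74-fold and 1.32-fold in the same order. Ebp was the exception of the arm in 1 respect: its neratinib libraries (70.1 to 116 CPM) reached above its CM libraries (65.3 to 94.6 CPM), and the fitted difference was 0.10 ± 0.15 on the log2 scale (adjusted p = 0.658). Tm7sf2, a sterol reductase counted at 134 to 407 reads per library, rose 2.02-fold with TGF-beta and 2.03-fold in CM.

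**Figure D2:**
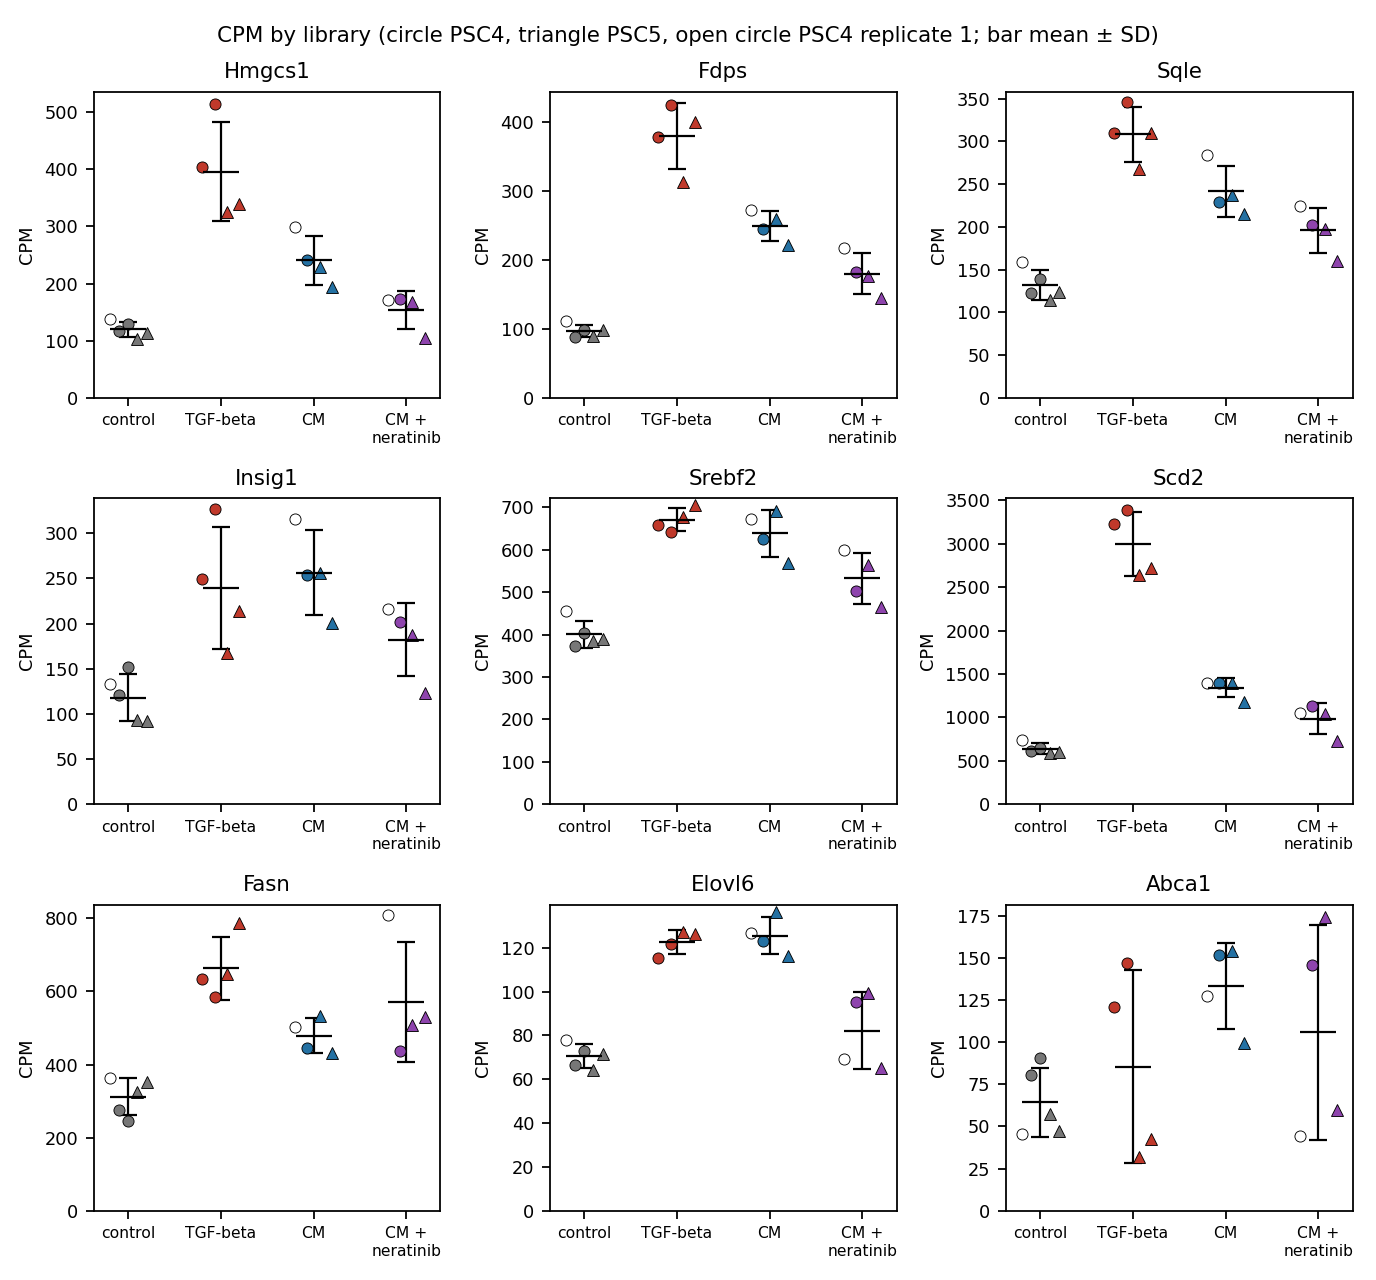
Level in CPM (linear axis from 0) of 9 members in each of the 17 libraries, by medium, with the mean and SD of each group. The means of Hmgcs1, Fdps, Sqle and Scd2 step down from TGF-beta to CM to neratinib to control, the libraries of Sqle, Insig1, Srebf2 and Elovl6 overlap between CM and TGF-beta, and Abca1 is split within groups.

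The control genes of the pathway did not all move together. Insig1 (ENSMUSG00000045294, chr5:28071363-28078662), the retention protein that is itself an SREBP target, had 133, 121 and 151 CPM in PSC4 and 93.0 and 91.8 CPM in PSC5 in control, 249 and 327 CPM in PSC4 and 167 and 214 CPM in PSC5 with TGF-beta, 316 and 254 CPM in PSC4 and 256 and 201 CPM in PSC5 in CM, and 216 and 201 CPM in PSC4 and 188 and 124 CPM in PSC5 with neratinib. TGF-beta and CM libraries lay above all control libraries and overlapped each other. Insig1 rose by 1.06 ± 0.13 SE, adjusted p = 2.12e-05 on the log2 scale with TGF-beta and 1.18 ± 0.13 SE, adjusted p = 9.33e-05 in CM. The difference of CM from TGF-beta was 0.12 ± 0.14 (SE; adjusted p = 0.536). Insig2 (ENSMUSG00000003721, chr1:121304353-121332589), its relative, was not called with either: it had 53.9, 55.4 and 53.9 CPM in PSC4 and 56.1 and 55.7 CPM in PSC5 in control, 44.4 and 41.8 CPM in PSC4 and 54.9 and 29.2 CPM in PSC5 with TGF-beta, 63.9 and 49.4 CPM in PSC4 and 49.1 and 59.4 CPM in PSC5 in CM, and 26.0 and 39.6 CPM in PSC4 and 43.2 and 34.9 CPM in PSC5 with neratinib. All 4 neratinib libraries lay below all control and all CM libraries. Its log2 fold change with neratinib was -0.62 ± 0.16 SE, adjusted p = 0.00721 against control, and -0.63 ± 0.17 SE, adjusted p = 0.0185 against CM.

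Srebf2 (ENSMUSG00000022463, chr15:82147181-82205379), the factor with the stronger action on sterol genes, had 455, 373 and 403 CPM in PSC4 and 384 and 390.0 CPM in PSC5 in control, 658 and 643 CPM in PSC4 and 677 and 705 CPM in PSC5 with TGF-beta, 673 and 625 CPM in PSC4 and 692 and 568 CPM in PSC5 in CM, and 599 and 503 CPM in PSC4 and 564 and 465 CPM in PSC5 with neratinib. All 12 treated libraries lay above all 5 control libraries. Srebf1 (ENSMUSG00000020538, chr11:60199089-60222581) had 119.5, 105 and 105 CPM in PSC4 and 108 and 105 CPM in PSC5 in control, 167 and 167 CPM in PSC4 and 157 and 152 CPM in PSC5 with TGF-beta, 163 and 153 CPM in PSC4 and 164 and 142 CPM in PSC5 in CM, and 137 and 124 CPM in PSC4 and 151 and 125 CPM in PSC5 with neratinib, again with no overlap with control. The log2 fold changes of Srebf2 and Srebf1 were 0.75 ± 0.08 SE, adjusted p = 8.73e-06, and 0.57 ± 0.07 SE, adjusted p = 1.51e-05 with TGF-beta. In CM they were 0.68 ± 0.08 SE, adjusted p = 0.000224, and 0.52 ± 0.07 SE, adjusted p = 0.00033. Neither was called between CM and TGF-beta (-0.07 ± 0.09 and -0.05 ± 0.07, SE). Gene counts do not separate the main transcripts of Srebf1, whose gene also overlaps Rai1 on the other strand, and whether the counting used strand is not given in the sources used here.

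Scap, the escort protein of SREBP, was not called in any of the 6 comparisons, with 128 ± 4.97 CPM (SD, n = 5) in control, 119 ± 8.01 CPM (SD, n = 4) with TGF-beta, 126 ± 2.22 CPM (SD, n = 4) in CM and 125 ± 4.85 CPM (SD, n = 4) with neratinib. Stard4, a carrier of sterols between membranes, had 101, 88.2 and 91.6 CPM in PSC4 and 78.4 and 88.8 CPM in PSC5 in control, 172 and 191 CPM in PSC4 and 163 and 171 CPM in PSC5 with TGF-beta, 183 and 147 CPM in PSC4 and 164 and 143 CPM in PSC5 in CM, and 93.5 and 116 CPM in PSC4 and 127 and 81.1 CPM in PSC5 with neratinib. TGF-beta and CM lay above control without overlap, and with neratinib 2 libraries lay within the control range and 2 above it. Stard4 rose by 0.97 ± 0.11 SE, adjusted p = 1.14e-05 with TGF-beta and 0.84 ± 0.11 SE, adjusted p = 0.00039 in CM on the log2 scale. With neratinib its difference from control was not called (adjusted p = 0.113).

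In the fatty acid arm, 2 desaturases had the largest rises with TGF-beta. Scd2 (ENSMUSG00000025203, chr19:44293674-44306864), which puts the first double bond into saturated fatty acids, had 744, 617 and 647 CPM in PSC4 and 591 and 603 CPM in PSC5 in control and 3228 and 3383 CPM in PSC4 and 2637 and 2721 CPM in PSC5 with TGF-beta. It had 1398 and 1401 CPM in PSC4 and 1391 and 1183 CPM in PSC5 in CM and 1049 and 1128 CPM in PSC4 and 1035 and 728 CPM in PSC5 with neratinib. Scd1 (ENSMUSG00000037071, chr19:44394455-44407879), of the same function, had 176, 179 and 173 CPM in PSC4 and 168 and 157 CPM in PSC5 in control and 849 and 942 CPM in PSC4 and 601 and 639 CPM in PSC5 with TGF-beta, then 306 and 323 CPM in PSC4 and 316 and 271 CPM in PSC5 in CM and 175 and 238 CPM in PSC4 and 242 and 196 CPM in PSC5 with neratinib. For both genes the TGF-beta libraries lay above all others, and the CM libraries lay between TGF-beta and control without overlap. With TGF-beta these were the 2 largest rises among the 38 members: 2.24 ± 0.10 SE, adjusted p = 1.05e-09 for Scd2, and 2.16 ± 0.12 SE, adjusted p = 1.12e-08 for Scd1 on the log2 scale. In CM the rises were 1.09 ± 0.10 SE, adjusted p = 1.22e-05, and 0.85 ± 0.12 SE, adjusted p = 0.000402. Scd1 and Scd2 are related neighbours on chromosome 19, so reads from shared sequence may have been divided between them.

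Acly and Acss2 supply acetyl-CoA from citrate and from acetate. Acly had 334 ± 27.97 CPM (SD, n = 5) in control, 453 ± 70.2 CPM (SD, n = 4) with TGF-beta and 458 ± 34.4 CPM (SD, n = 4) in CM, and rose by 0.42 ± 0.10 and 0.45 ± 0.10 on the log2 scale (adjusted p = 0.00365 and 0.0102). Acss2 rose with TGF-beta (0.58 ± 0.16 SE, adjusted p = 0.00994) and was the 1 fatty acid gene not called in CM, at 15.6 ± 1.18 CPM (SD, n = 5) in control and 14.04 ± 1.14 CPM (SD, n = 4) in CM. Its TGF-beta libraries held 28.03 and 30.1 CPM in PSC4 and 21.3 and 13.9 CPM in PSC5, and the PSC5 replicate 2 library was below the control mean.

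Acaca, the acetyl-CoA carboxylase that makes malonyl-CoA, rose 2.34-fold with TGF-beta, from 80.1 to 118 CPM to 231 to 272 CPM, and 1.34-fold in CM. Fasn (ENSMUSG00000025153, chr11:120805846-120824547), the fatty acid synthase that uses malonyl-CoA, had 364, 274 and 245 CPM in PSC4 and 326 and 352 CPM in PSC5 in control, 633 and 584 CPM in PSC4 and 648 and 787 CPM in PSC5 with TGF-beta, 502 and 446 CPM in PSC4 and 534 and 432 CPM in PSC5 in CM, and 809.8 and 437 CPM in PSC4 and 508 and 531 CPM in PSC5 with neratinib. All treated libraries lay above control, and the highest value of all was the neratinib library labelled PSC4 replicate 1. Fasn rose by 1.08 ± 0.17 SE, adjusted p = 0.000119 with TGF-beta, 0.61 ± 0.16 SE, adjusted p = 0.0235 in CM, and 0.87 ± 0.16 SE, adjusted p = 0.000817 with neratinib. Without the 3 libraries labelled PSC4 replicate 1, the rise with neratinib was 0.68 (adjusted p = 0.000213).

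The elongases and the desaturases of polyunsaturated fatty acids moved by different amounts. Elovl6 (ENSMUSG00000041220, chr3:129532355-129638495), which lengthens saturated fatty acids, had 77.7, 66.5 and 72.8 CPM in PSC4 and 64.0 and 71.5 CPM in PSC5 in control, 115 and 122 CPM in PSC4 and 127 and 126 CPM in PSC5 with TGF-beta, 127 and 123 CPM in PSC4 and 136 and 116 CPM in PSC5 in CM, and 69.2 and 95.2 CPM in PSC4 and 99.2 and 65.1 CPM in PSC5 with neratinib. TGF-beta and CM libraries overlapped each other and lay above control, and the neratinib libraries were split, with 2 inside the control range and 2 above it. Elovl6 rose 1.74-fold with TGF-beta and 1.78-fold in CM. Elovl5, an elongase of polyunsaturated chains, rose 1.32-fold and 1.26-fold. Fads1 had 217, 214 and 225 CPM in PSC4 and 202 and 188 CPM in PSC5 in control, 494 and 482 CPM in PSC4 and 385 and 404 CPM in PSC5 with TGF-beta, 353 and 347 CPM in PSC4 and 359.9 and 302 CPM in PSC5 in CM, and 348 and 338 CPM in PSC4 and 317 and 289.6 CPM in PSC5 with neratinib. All treated libraries lay above control and neratinib overlapped CM. Fads1 rose 2.13-fold, 1.65-fold and 1.56-fold with TGF-beta, CM and neratinib, and Fads2 rose 2.36-fold, 1.66-fold and 1.41-fold.

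The LXR and efflux genes were read against these arms. Abca1 (ENSMUSG00000015243, chr4:53030787-53159895), the exporter of cholesterol to apolipoproteins, had 45.2, 80.7 and 90.8 CPM in PSC4 and 57.6 and 47.0 CPM in PSC5 in control and 121 and 147 CPM in PSC4 and 31.9 and 42.4 CPM in PSC5 with TGF-beta. It had 127 and 152 CPM in PSC4 and 154 and 99.5 CPM in PSC5 in CM and 44.1 and 145 CPM in PSC4 and 174 and 59.6 CPM in PSC5 with neratinib. CM lay above control without overlap, while with TGF-beta the PSC4 libraries were above control and the PSC5 libraries below it, and with neratinib 2 libraries were above the control range, 1 within it and 1 just below it. The log2 fold change was 0.35 ± 0.43 with TGF-beta, 1.13 ± 0.43 in CM and 0.84 ± 0.43 with neratinib (SE), and none was called (adjusted p = 0.544, 0.0934 and 0.131). With the replicate block, the CM and neratinib differences passed the threshold (adjusted p = 0.0128 and 0.0454), as they did without the 3 libraries labelled PSC4 replicate 1 (0.048 and 0.038).

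Abcg1 (ENSMUSG00000024030, chr17:31057675-31117988), the exporter to lipoprotein particles, was counted at 11, 14 and 8 reads in PSC4 and 7 and 3 in PSC5 in control, and at 35 and 39 in PSC4 and 22 and 12 in PSC5 with TGF-beta. CM libraries held 7 and 13 reads in PSC4 and 15 and 11 in PSC5, and neratinib libraries 0 and 4 in PSC4 and 1 and 2 in PSC5. The neratinib libraries lay below all CM libraries and overlapped control at its lowest value, and 1 TGF-beta library lay within the control range. It was called higher with TGF-beta (1.76 ± 0.47 SE, adjusted p = 0.00748) and lower with neratinib against control (adjusted p = 0.0209) and against CM (adjusted p = 0.014). Without the 3 libraries labelled PSC4 replicate 1, the first of these neratinib calls was not kept (adjusted p = 0.0607). No fold is given where the neratinib libraries hold so few reads. Nr1h2, which encodes LXR-beta, had 40.98, 41.8 and 42.1 CPM in PSC4 and 39.2 and 39.5 CPM in PSC5 in control, 51.4 and 44.2 CPM in PSC4 and 41.2 and 40.3 CPM in PSC5 with TGF-beta, 46.9 and 47.8 CPM in PSC4 and 48.9 and 43.9 CPM in PSC5 in CM, and 49.3 and 45.4 CPM in PSC4 and 46.5 and 43.2 CPM in PSC5 with neratinib. CM and neratinib lay above control without overlap, by 1.16-fold (adjusted p = 0.0276) and 1.14-fold (adjusted p = 0.0192), a small difference that was called in 10 of 20 and 14 of 20 alternative analyses. Mylip, a ubiquitin ligase induced by LXR, was not called in any of the 6 comparisons, with group ranges of 26.4 to 58.3 CPM, 34.5 to 78.6 CPM, 30.0 to 57.7 CPM and 14.2 to 59.7 CPM in control, TGF-beta, CM and neratinib.

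**Figure D3:**
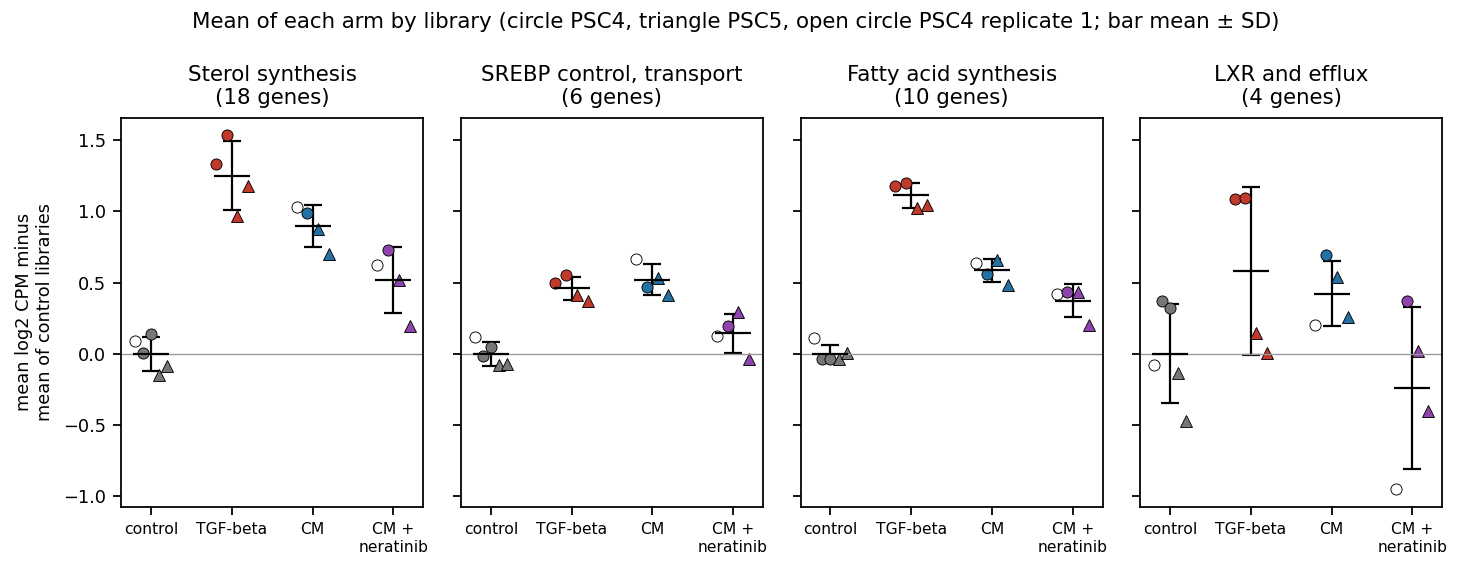
For each arm, the mean over its genes of log2 CPM minus the mean of the control libraries, 1 point per library, with the mean and SD of each medium. The sterol and fatty acid arms are both above control in every treated library, and the LXR and efflux arm, which includes the few reads of Abcg1, has treated libraries on both sides of control.

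In the CM group, 32 of the 38 members were called higher than control and 0 lower, beside 7.05% of all genes tested called higher. The sterol arm had a median log2 fold change of 0.93 (range 0.51 to 1.37) and the fatty acid arm 0.67 (range -0.12 to 1.09), beside 0.00 for all genes. In 32 members every CM library lay above every control library, beside 9.37% of all genes. Of the 32 calls, 27 were kept under each of the 20 alternatives. With the T6 libraries removed, which hold the higher epithelial sums, 30 members were called, and with the T8 libraries removed 27 were called. The part of the epithelial genes in these values was not tested.

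The arms were next set side by side within each library. In the 4 CM libraries the mean rise of the sterol arm exceeded that of the fatty acid arm by 0.22 to 0.43 on the log2 scale, and by -0.06 to 0.33 in the 4 TGF-beta libraries. With neratinib this difference was -0.01 to 0.29, and in control -0.12 to 0.18. The sterol arm was the higher of the 2 in all CM libraries and in 3 of 4 libraries of each of the other treated groups. These rises are taken from the mean of the 5 control libraries of both lines. The exceptions were PSC5 replicate 1 with TGF-beta and PSC5 replicate 2 with neratinib. Their control libraries of the same number had sterol means of -0.15 and -0.087 and fatty acid means of -0.034 and 0.004. Measured from those controls, the sterol rise was the larger in these libraries too. Libraries of PSC4 replicates 2 and 3 with TGF-beta had sterol means of 1.331 and 1.535, above 0.967 and 1.177 in PSC5, while their fatty acid means were 1.176 and 1.201 against 1.026 and 1.048.

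Against TGF-beta directly, 18 of the 38 members were called lower in CM and 0 higher, beside 17.5% of all genes called lower. These were 11 of 18 sterol enzymes, 7 of 10 fatty acid enzymes and none of the other members. In 14 members every CM library lay below every TGF-beta library, beside 15.9% of all genes. Among the called members Scd1 and Scd2 were lowest relative to TGF-beta, at -1.30 ± 0.12 SE, adjusted p = 1.95e-06, and -1.15 ± 0.10 SE, adjusted p = 1.02e-06. Acaca followed at -0.80 ± 0.12, then Hmgcs1 at -0.71 ± 0.13, Acss2 at -0.71 ± 0.17 and Cyp51 at -0.66 ± 0.12 on the log2 scale. Sc5d, Tm7sf2, Elovl6, Elovl5, Acly and Stard4 were among the members not called. With the replicate block, Acat2 (adjusted p = 0.0309) and Abca1 (0.0201) were called and Msmo1 (0.0909) was not. The TGF-beta and CM comparisons with control share the control libraries.

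The neratinib libraries still differed from control. Of the 38 members, 28 were called higher and 2 lower, beside 22.2% of all genes called higher and 20.9% called lower. The sterol arm had a median log2 fold change of 0.55 (range 0.23 to 0.94) and the fatty acid arm 0.47 (range -0.40 to 0.87), beside 0.01 for all genes. In 19 members every neratinib library lay above every control library, beside 14.1% of all genes, and in 1, Insig2, every one lay below, beside 15.3%. Hsd17b7 was the sterol enzyme not called (49.5 ± 5.76 CPM (SD, n = 5) in control and 56.8 ± 9.40 CPM (SD, n = 4) with neratinib). Acly, Elovl6 and Acss2 were the fatty acid genes not called. With the replicate block Hsd17b7 was called (adjusted p = 0.0412). Of the 30 calls, 23 were kept under each of the 20 alternatives.

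Between neratinib and CM, 25 of the 38 members were called lower with neratinib and 0 higher, beside 9.63% of all genes called lower. By arm these were 16 of 18 sterol enzymes (median log2 fold change -0.36), 4 of 6 genes of SREBP control and transport, 4 of 10 fatty acid enzymes (median -0.26) and Abcg1. In 14 members every neratinib library lay below every CM library, beside 9.14% of all genes. Libraries of the same line and number could be set against each other: 28 members were lower with neratinib in 4 of 4 such pairs, among them 16 sterol and 6 fatty acid enzymes, beside 25.1% of all genes. None of the 25 calls was kept under every alternative, and no called member changed sign. The count was 14 without the neratinib library of PSC5 replicate 2, 15 without the PSC5 replicate 1 library of CM, 16 without the PSC4 replicate 1 library of CM and 17 without the 3 libraries labelled PSC4 replicate 1. It was 11 in the T6 libraries alone, 1 in the T8 libraries alone, and 2 where only these 8 libraries were fitted. It was 28 with the replicate block.

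In the sterol arm the largest differences of neratinib from CM were those of Hmgcs1 (-0.64 ± 0.13 SE, adjusted p = 0.00363) and Lss (-0.59 ± 0.11 SE, adjusted p = 0.00265). Cyp51 followed at -0.55 ± 0.12, Idi1 at -0.51 ± 0.10, Pmvk at -0.48 ± 0.07 and Fdps at -0.47 ± 0.10 on the log2 scale. Sqle fell by 0.30 on that scale (adjusted p = 0.0368). Among the control genes the difference was -0.50 ± 0.14 SE, adjusted p = 0.0213 for Insig1, -0.61 ± 0.12 SE, adjusted p = 0.00349 for Stard4, and -0.26 ± 0.09 SE, adjusted p = 0.0488 for Srebf2. Srebf1 lay just outside the threshold at -0.21 ± 0.07 SE, adjusted p = 0.0506. With the replicate block, Srebf1 (adjusted p = 0.0151), Acly (0.00884) and Tm7sf2 (0.0444) were called as well.

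The 4 fatty acid enzymes called lower with neratinib than in CM were Elovl6 (-0.61 ± 0.12 SE, adjusted p = 0.00333), Scd1 (-0.51 ± 0.12 SE, adjusted p = 0.00981), Scd2 (-0.45 ± 0.10 SE, adjusted p = 0.00664) and Fads2 (-0.24 ± 0.08 SE, adjusted p = 0.0469). The steps before them were not called: Acaca had 139.8 ± 15.2 CPM (SD, n = 4) in CM and 147 ± 19.4 CPM (SD, n = 4) with neratinib, and Fasn had 478 ± 47.8 CPM (SD, n = 4) and 572 ± 164 CPM (SD, n = 4). The log2 fold change of Fasn was 0.26 ± 0.17 SE, adjusted p = 0.313, with 2 of the 4 pairs higher and 2 lower. Without the 3 libraries labelled PSC4 replicate 1 it was 0.06 (adjusted p = 0.732). Elovl5 was higher with neratinib in 4 of 4 pairs, at 109 ± 5.86 CPM (SD, n = 4) and 118 ± 7.01 CPM (SD, n = 4), and was not called (adjusted p = 0.248). Whether the sterol and fatty acid arms responded differently to neratinib was not tested, because members chosen as a list are described by their counts alone.

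**Figure D4:**
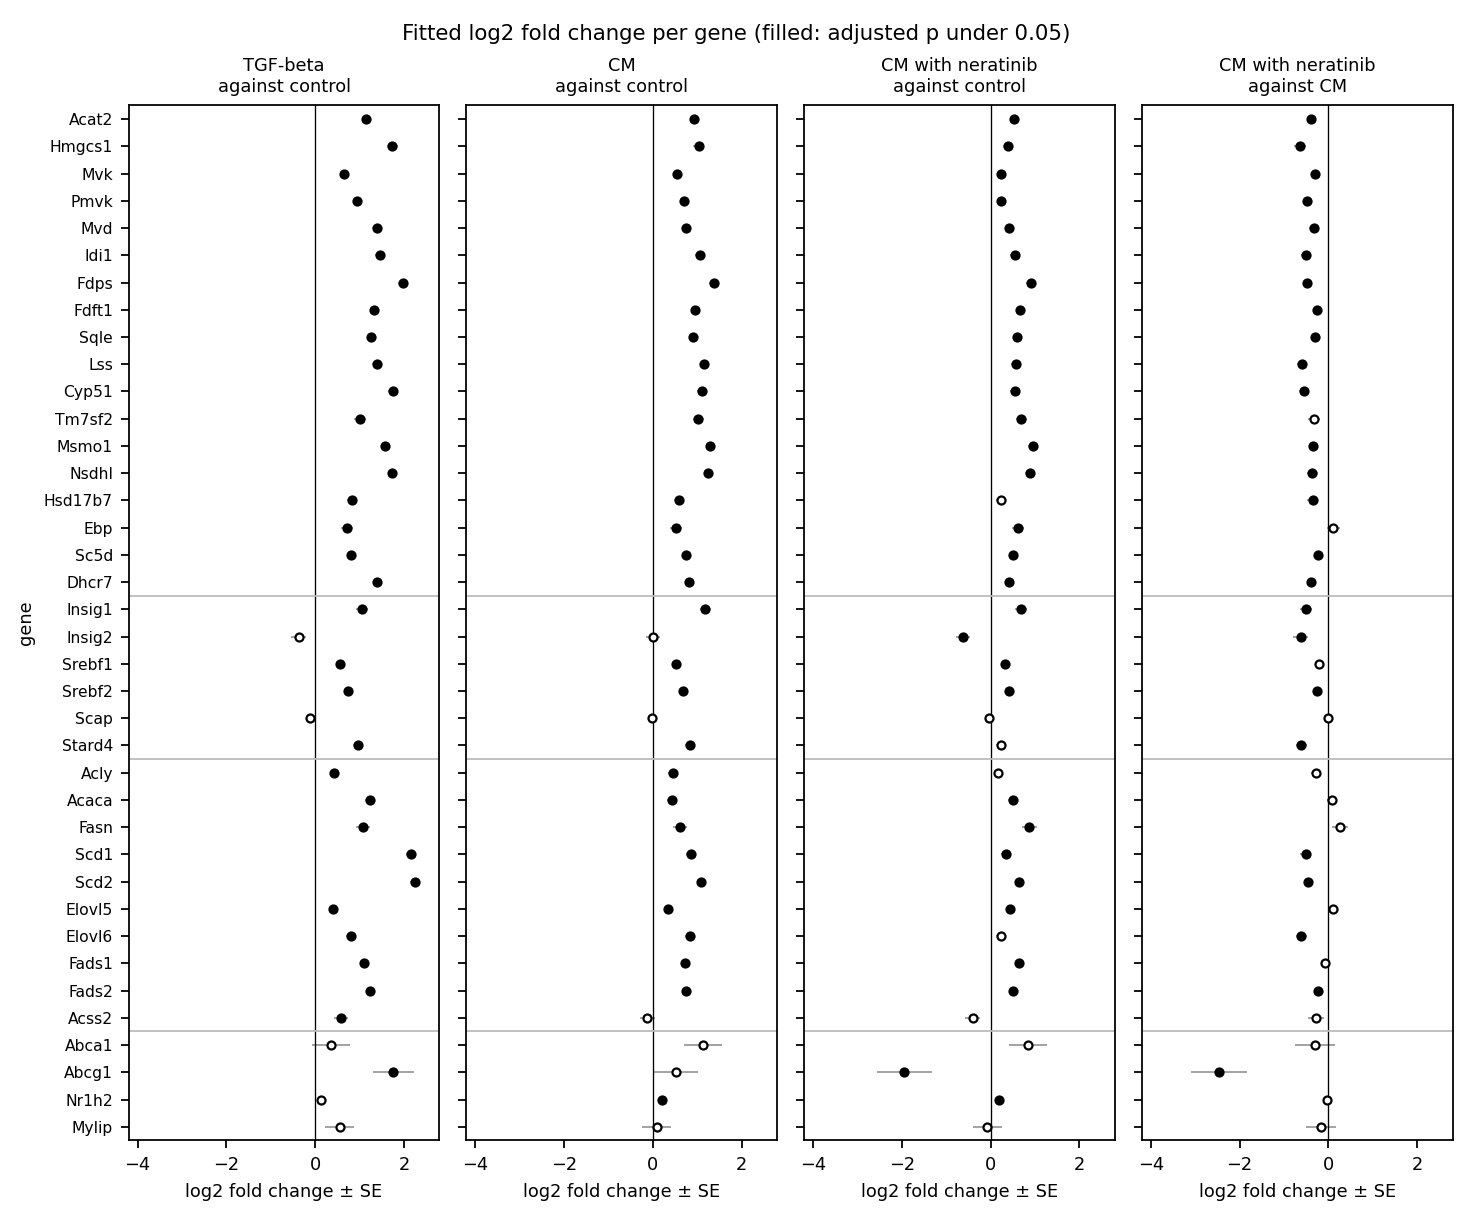
Fitted log2 fold change (x axis) of each member (y axis, by arm) in 4 comparisons, with bars of 1 SE and filled points where the adjusted p was under 0.05. In the right-hand panel nearly all sterol genes lie left of 0, while Acaca, Fasn and Elovl5 lie at or right of it.

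Neratinib was also set against TGF-beta, with 28 members called lower and 0 higher, beside 20.9% of all genes called lower. The 28 were 16 sterol enzymes, 4 genes of SREBP control and transport, 7 fatty acid enzymes and Abcg1. In 23 members every neratinib library lay below every TGF-beta library, beside 15.2% of all genes. Scd1 and Scd2 differed most after Abcg1, at -1.81 ± 0.13 SE, adjusted p = 7.04e-08, and -1.60 ± 0.10 SE, adjusted p = 4.25e-08. In the sterol arm Hmgcs1 (-1.35 ± 0.13 SE, adjusted p = 1.44e-06) and Cyp51 (-1.21 ± 0.12 SE, adjusted p = 1.58e-06) differed most. The difference was -0.38 ± 0.14 for Insig1, -0.74 ± 0.12 for Stard4, -0.33 ± 0.09 for Srebf2 and -0.26 ± 0.07 for Srebf1. Fasn, at -0.21 ± 0.17, was not called (adjusted p = 0.351). It was called with the replicate block (adjusted p = 0.0165) and, at -0.47, without the 3 libraries labelled PSC4 replicate 1 (adjusted p = 0.00138). Acly was likewise called with the block (adjusted p = 0.00214).

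Across the 4 media, the group means of 23 members ran in the order TGF-beta, CM, neratinib, control from highest to lowest, beside 3.5% of all genes. This was so for 16 of the 18 sterol enzymes, the exceptions being Ebp and Tm7sf2, and for 4 of the 10 fatty acid enzymes. It held for Srebf1, Srebf2 and Stard4 and for none of the 4 LXR and efflux genes. Neighbours in the order were not always separated: 7 sterol enzymes were not called between CM and TGF-beta, and 2 were not called between neratinib and CM.

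Whether the effects differed between the lines was tested by interaction terms. For TGF-beta, for CM and for neratinib against CM, 0 of 38 members and 0 of 13923 genes were called (0%), by edgeR and, for the members, also by DESeq2. At an unadjusted p under 0.05 there were 1, 0 and 0 members, and 601, 43 and 237 genes. These gene counts are below what a p under 0.05 would give with no difference, so the test was conservative. Few libraries stand behind each line in a group, and PSC4 includes the libraries labelled replicate 1. The 0 calls therefore do not show that the lines responded alike. The medium code T6 against T8 likewise gave 0 members and 0 genes (0%), with 2 members (Lss and Insig1) and 906 genes at an unadjusted p under 0.05. Krt8, an epithelial marker, was not called, with 12 and 147 counts in T8 libraries of CM and 1233 and 1173 in T6 libraries. The test thus missed a large difference, and it cannot show that the codes are alike.

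The lines themselves differed in level. In a test of the line term, added after the values had been seen, 12 members were called higher in PSC4 than in PSC5 and 0 lower, beside 4.78% of all genes called higher. Of the 12, 10 were sterol enzymes, led by Msmo1 (0.45 ± 0.07 SE, adjusted p = 0.0208), and the others were Insig1 (0.47 ± 0.10 SE, adjusted p = 0.0238) and Fads1 (0.18 ± 0.04 SE, adjusted p = 0.0342). Without the 3 libraries labelled PSC4 replicate 1, 19 members were called higher and 3 lower in PSC4, beside 21.5% and 21% of all genes. The 3 lower, a smaller share than that of all genes, were Acly (-0.24), Acaca (-0.24) and Fasn (-0.26). The 11 sterol enzymes called there were all higher in PSC4, as were Scd1 (0.25), Scd2 (0.21), Abca1 (0.88) and Mylip (0.95). Passage and line cannot be told apart, since the passages of PSC4 and PSC5 do not overlap.

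Genes around these arms were read from 3 further lists. The shares of all genes tested were 19.7% called higher and 20.5% called lower with TGF-beta, 7.05% higher and 7.14% lower in CM, and 10.8% higher and 9.63% lower between neratinib and CM. Of 16 other sterol and SREBP genes, TGF-beta gave 5 higher and 3 lower calls (median log2 fold change 0.05), the latter near the share of all genes. In CM 4 were called higher and 2 lower, and between neratinib and CM 3 higher and 2 lower. Aacs, which makes acetoacetyl-CoA from ketone bodies in the cytosol, rose by 0.80 ± 0.07 with TGF-beta, 0.59 ± 0.07 in CM and 0.49 ± 0.07 with neratinib on the log2 scale. Soat1, which esterifies cholesterol for storage, rose by 0.71 ± 0.08 SE, adjusted p = 7.10e-06 with TGF-beta. Lpin1, a phosphatidate phosphatase, fell in CM (-0.60 ± 0.15 SE, adjusted p = 0.0187) and fell further with neratinib (-0.81 ± 0.16 SE, adjusted p = 0.00408 against CM). Mbtps2 and Mbtps1, the proteases that release SREBP, moved apart with neratinib against CM, at 0.58 ± 0.09 SE, adjusted p = 0.00064, and -0.32 ± 0.08 SE, adjusted p = 0.0177.

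Of 18 other fatty acid genes, TGF-beta gave 9 higher and 4 lower calls (median 0.27), with 7 higher and 1 lower in CM (median 0.22), and 5 higher and 0 lower between neratinib and CM (median 0.11). The 4 lower calls with TGF-beta and the 1 in CM are near the shares of all genes. Acsl4, which activates polyunsaturated fatty acids, rose 2.63-fold with TGF-beta, and by 0.67 ± 0.07 in CM and 1.05 ± 0.07 with neratinib on the log2 scale, and lay above CM with neratinib (0.39 ± 0.08 SE, adjusted p = 0.00371). Mid1ip1, an activator of acetyl-CoA carboxylase, rose by 0.61 ± 0.12 in CM and 1.32 ± 0.12 with neratinib, and by 0.71 ± 0.12 SE, adjusted p = 0.00195 between these groups. Acsl1, another acyl-CoA synthetase, fell with TGF-beta (-1.22 ± 0.18 SE, adjusted p = 0.000106). Gpam, which starts glycerolipid synthesis, fell in CM (-0.65 ± 0.08 SE, adjusted p = 0.000319).

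Of 10 other LXR genes, TGF-beta gave 3 higher and 3 lower calls, with 2 higher and 1 lower in CM, and 1 higher and 0 lower between neratinib and CM. The 2 higher calls in CM lie above the share of all genes, 7.05%. In a list this short the other counts lie close to their shares. Arl4c, an LXR target, rose with TGF-beta (2.02 ± 0.13 SE, adjusted p = 3.16e-08), and Nr1h3, which encodes LXR-alpha, fell (-1.59 ± 0.40 SE, adjusted p = 0.00548). Nr1h3 had few reads, with 41 to 87 per library in control and 7 to 25 with TGF-beta. Lpcat3, which puts polyunsaturated chains into phospholipids, rose in CM (0.48 ± 0.08 SE, adjusted p = 0.00115). Pltp, which transfers phospholipids between lipoproteins, fell with TGF-beta (-0.79 ± 0.26 SE, adjusted p = 0.0256) and in CM (-1.13 ± 0.26 SE, adjusted p = 0.0123). Tmem135 was the LXR gene called between neratinib and CM (0.33 ± 0.10 SE, adjusted p = 0.0294).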

How the data were processed

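The deposited values are expected counts, estimated by the authors for each Ensembl gene with Salmon as the files are named, 1 file per library and not scaled to depth. The tools and builds listed, per the submitters' processing notes, are Salmon 1.4.0, DESeq 2, GRCm38 and mm10. The annotation release, the use of strand and filters on reads are not given in the sources used here. Of the deposited values above 0, 74.77% were not whole. Rounding moved no library total by more than 307.9 counts. Of 35896 gene IDs, 35437 had a symbol in GENCODE M21 (GRCm38), from which gene positions were taken.

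The main test was edgeR's quasi-likelihood test (version 4.0.16, R 4.3.3) with TMM scaling and filterByExpr by group (minimum count 10, total 15), leaving 13923 genes. One model held all 17 libraries with terms for group and line. Genes with a Benjamini-Hochberg adjusted p under 0.05 are called. The SE is the fitted log2 fold change divided by the root of the F statistic. The biological coefficient of variation was 19.8%. Group by line interactions and a T6 term were tested in the same way. The script was tested on simulated data. DESeq2 1.42.0 was an alternative, beside other scalings, filters, designs and left-out libraries. Levels of a library carry counting error, as reads had no molecular identifiers.

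Same-line libraries with the same number share a passage in the labels. All 22 such pairs of different groups had deviations that correlated above 0.1 (lowest 0.12, median 0.299). With the libraries labelled PSC4 replicate 1 set aside, the median was 0.288 in 19 such pairs. Same-line pairs with different numbers then had a median of 0.254, with 14 of 18 above 0.1. For these libraries the correlation does not clearly separate number from line. The numbers were taken to pair the libraries, and the replicate block has 5 levels of line and number.

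Any of the 38 members could be named. Values by library were given for Insig1, Srebf1, Srebf2, Hmgcs1, Sqle, Scd1, Scd2, Fasn and Abca1 and, in each of 6 comparisons, for the 2 called members of each arm with the largest fold change; other genes were named up to 3 per list and comparison. Members, lists and this rule were chosen with earlier results of these data known. Promoters were searched for 9 motifs on both strands, also chosen with results known, and a gene counts as matched if any of its windows holds the motif.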

Additional observations from a re-analysis of the deposited data

Results flagged for a closer look

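In 6 of 152 sets of 1 member in 1 group, 1 library lay far from the others by Dixon's criterion, which chance alone meets in about 1 in 20 sets. Hmgcs1 stood at 104 CPM in the neratinib library of PSC5 replicate 2, with the other 3 at 167 to 173 CPM, and Hsd17b7 at 42.8 CPM in the same library, with the others at 60.5 to 62.9 CPM. Scd2 stood at 1183 CPM in the CM library of PSC5 replicate 2, with the others at 1391 to 1401 CPM. Srebf1 stood at 120 CPM in the control library labelled PSC4 replicate 1, with the others at 105 to 108 CPM. Acaca stood at 272 CPM in the TGF-beta library of PSC5 replicate 2, with the others at 231 to 237 CPM. Mylip stood at 57.7 CPM in the CM library of PSC4 replicate 2, with the others at 30.0 to 34.6 CPM.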

How the results depend on the processing

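The count of members called between neratinib and CM, 25, depended on the analysis: it was 14 without the cell line term, 2 with only the 8 libraries of these groups, 1 without the T6 libraries and 11 without the T8 libraries, and 14 to 26 when 1 library was left out. With the replicate block it was 28 and with DESeq2 27. Removing T6 or T8 libraries leaves 2 in each of these groups. The other counts stayed within 1.5 times: 33 to 35 for TGF-beta (33 with the block), 27 to 33 for CM (33), 25 to 33 for neratinib against control (32), 13 to 20 for CM against TGF-beta (19) and 25 to 30 for neratinib against TGF-beta (30). Of the calls, 13 of 18 for CM against TGF-beta and 24 of 28 for neratinib against TGF-beta were kept under every alternative, and no called member changed sign. Some differences near 0 that were not called changed sign. Between CM and TGF-beta, Insig1 was -0.057 without T8 libraries, and Srebf1 0.031 and Srebf2 0.027 without T6 libraries. Without T6 libraries, Ebp between neratinib and CM was -0.001 and Fasn between neratinib and TGF-beta 0.003. With 1 library left out, the difference of neratinib from CM was -0.003 to 0.206 for Ebp, -0.044 to 0.129 for Acaca and -0.870 to 0.021 for Abca1, and that of neratinib from TGF-beta -0.028 to 0.843 for Abca1. For the line term, added after the values had been seen, 12 members were called, 22 without the 3 libraries labelled PSC4 replicate 1 and 17 with these counted as PSC5. The cause of these changes was not tested. With 4 or 5 libraries per group, depth limits the least counted members, Abcg1 above all.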
